A study of Mus musculus with 2 samples.

Results

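The suppressor of cytokine signaling genes Socs1 to Socs7 and their relative Cish were examined in the H3K4me3 peak lists of lung group 2 innate lymphoid cells (ILC2s). The 8 genes were taken by name out of 21938 protein-coding genes of the GENCODE annotation of GRCm38. No measured value entered this rule, but earlier results of these data were known when it was set. A peak belonged to a gene when it overlapped the gene body or lay within 1000 bp of any of the gene's transcript starts, and a peak within 1000 bp of a start is called a start peak.

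The series compares ILC2s of adult mice born to control mothers (1 library) with those of adult mice born to asthmatic mothers (1 library). Both came from about 3000 ILC2s of the lung, and the labels give the offspring an age of 8 weeks in one field and of 7 to 9 weeks in another. Mothers of both groups were injected repeatedly with alum (25 µL per injection), which for the asthmatic mothers also carried 100 µg of ovalbumin (OVA), and were then mated with untreated males. From gestation day 4 to 17, the control mothers received repeated doses of PBS through the nose and the asthmatic mothers received repeated doses of 500 µg of OVA each. The labels give no genotype and name no treatment of the offspring, and how many mice went into a library is not given in the sources used here. The mark H3K4me3, which is carried by histones at the starts of active and poised genes, was profiled by CATCH-seq, a carrier-assisted ChIP-seq for few cells. The comparison addresses whether asthma in the mother leaves marks on the chromatin of the offspring's ILC2s. With 1 library per group no difference has a replicate check, so every comparison below is a description of 2 libraries.

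SOCS proteins are brakes on cytokine receptors. A cytokine activates JAK kinases and STAT transcription factors, the STATs turn on Cish, Socs1, Socs2 and Socs3, and the proteins made from these bind the receptor or the JAK and damp the signal. Each member carries an SH2 domain that binds phosphotyrosine and a SOCS box that recruits a ubiquitin ligase, and Socs4 to Socs7 are better known for growth factor and insulin receptors than for cytokines. In lymphoid cells CIS, the protein made from Cish, and SOCS1 restrain responses to common gamma chain cytokines such as IL-2 and IL-7, and ILC2s depend on IL-7.

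The list of offspring of control mothers (the control list) held 42126 peaks of a median width of 315 bp, and the list of offspring of asthmatic mothers (the asthma list) held 51610 peaks of a median width of 249 bp. The read depth is not in the lists. The smallest background of each list was solved from the fold and −log10 p of its peaks, assuming that they were called without a control library. With the smallest peak width taken as the fragment length, it came to 96.1 fragments per 10 kb (control list) and 100.4 (asthma list). Of 11 ILC2 marker genes, 9 had a start peak in the control list and 7 in the asthma list, where 51% and 42% of all coding genes had one. Gata3 and Il7r, which encode a defining transcription factor and the IL-7 receptor, had one in the control list alone, as did 19% of the coding genes marked there, and Icos and Klrg1 had none in either. The markers of T cells (7 genes), B cells (5), macrophages (6), neutrophils (4) and fibroblasts (5) had no start peak in either list. The epithelial genes Epcam and Cdh1 (2 of 6) and the endothelial gene Kdr (1 of 4) had start peaks in the control list, and no marker of these cells had one in the asthma list. The study defines adult lung ILC2s as CD45+, lineage-negative, CD90.2+ and ST2+ cells, a gate that leaves out epithelial and endothelial cells, and a part of such cells in the control list was not tested.

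All 8 members had a start peak in the control list, where 51% of coding genes had one. In the asthma list 7 of 8 had one, where 42% of coding genes did, and Socs3 was the member without a peak. With the gene body included, the counts stayed at 8 and 7, where 58.2% and 51.9% of coding genes had a peak. Thus 7 members had start peaks in both lists (41.3% of coding genes), 1 in the control list alone (9.72%), 0 in the asthma list alone (0.711%) and 0 in neither (48.2%). The members had 15 peaks in the control list, of which 13 were start peaks, and 13 peaks in the asthma list, of which 11 were start peaks. Of the 13 control start peaks, 9 were overlapped by a peak of the asthma list, near the 70% of control start peaks of all coding genes. A control peak overlapped 11 of 11 asthma start peaks, where the share over all coding genes was 95.6%. The bases under control start peaks of the members were shared to 51.9% with the asthma list, against 50.2% for start peaks of all coding genes. The bases under asthma start peaks were shared to 91.0% with the control list, against 93.0%. With the peaks away from a start included, the members' shares were 48.3% and 82.9%. The members' starts were rich in G and C, from 58.0% at Cish to 76.7% at Socs7 within 500 bp on either side, where the median of coding genes was 54.7%. They held 54 to 127 CpG pairs, against a median of 41.

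**Figure D1:**
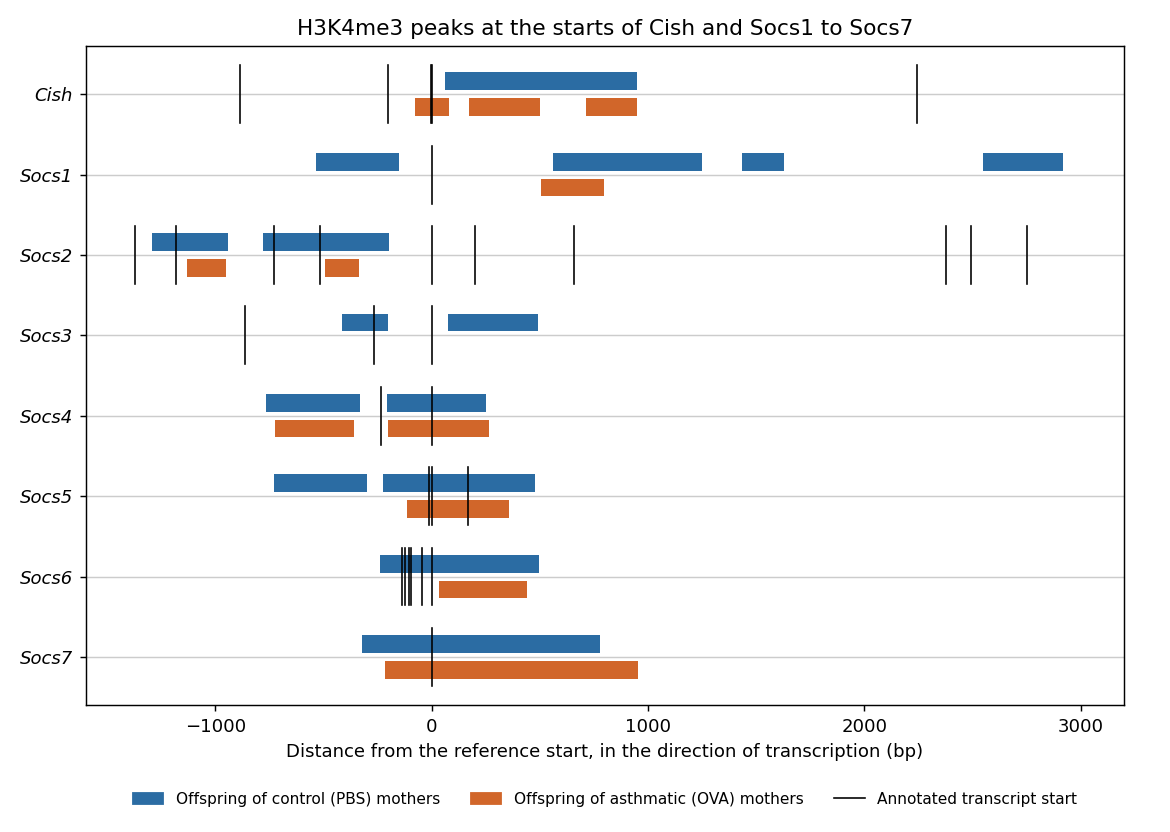
Position of each H3K4me3 peak (bars) at the 8 genes, in bp from the reference start (the coding transcript start nearest the summit of the strongest control peak), for offspring of control mothers (blue) and of asthmatic mothers (orange), with annotated transcript starts as black lines. Socs1 had 4 control peaks and 1 asthma peak, Socs3 had no asthma peak, and Socs4 and Socs7 had nearly the same stretch marked in both lists. The intronic asthma peaks of Socs6 and Socs7 lie outside the window.

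Peaks were measured by width, strength and fragments. The joined width is the length of the widest stretch at a start after joining peaks at most 1000 bp apart, and it is placed among the coding genes marked in the same list. The strength is the −log10 q of the strongest start peak, which measures how unlikely the pile of reads is against the local background, and it is placed among all peaks of the list. The number of fragments at the summit is not in the files and was solved from the fold and the −log10 p, assuming that peaks were called without a control library. It is given with an exact 95% Poisson interval that covers counting error only.

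Cish encodes CIS, a cytokine-induced brake that targets STAT5-activating receptors. The gene lies on chr9:107296026-107302784 (plus strand) and has 5 annotated starts. In the control list it had 1 peak at chr9:107296974-107297861, which is 888 bp wide and covers no start. In the asthma list it had 3 peaks at chr9:107296834-107296989, chr9:107297084-107297412 and chr9:107297626-107297860, and the first of these covers 2 of the 5 starts. Of the 888 bp of the control peak, 827 lie in noncoding exons of Cish itself. A start of the transcribed pseudogene Gm17040 also lies within 1000 bp of these peaks, so they cannot be assigned to Cish by position alone.

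The Cish start carried paired STAT motifs, which are shown because they are the letters that a cytokine-activated STAT can bind and because they lay beside the marked stretch and not under it. The palindrome TTCNNNGAA was searched on both strands within 500 bp of the RefSeq starts, and Cish had 4 matches, all outside the peaks of both lists. At least 4 matches were present in 19 of 32817 promoters of that length (0.0579%), a number set after the matches at Cish were counted, and at least 1 in 25%. Both stretches are read from GRCm38 on the plus strand, with the motifs in capitals, the first at chr9:107296654-107296683 and the second at chr9:107296762-107296791.

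Cish, first pair: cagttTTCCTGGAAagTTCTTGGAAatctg
Cish, second pair: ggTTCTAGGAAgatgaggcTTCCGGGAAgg

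The first pair ended 296 bp before the control peak and 156 bp before the nearest asthma peak, and the second pair ended 185 bp and 45 bp before them. A match is a description of the letters, not a bound site.

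Cish had 36 fragments at its summit in the control list (25.2 to 49.8) and 28 in the asthma list (18.6 to 40.5). These counts were among the highest of the marked coding genes, at the 93.6th and 98.4th percentile. The −log10 q was 7.48 in the control list and 8.55 in the asthma list, at only the 46.7th and 64.4th percentile of all peaks. The local background at Cish was 5.48 times the smallest background of the control list and 3.53 times that of the asthma list, above 99.6% and 99.2% of the start peaks of coding genes. Within 5000 bp of the summit lay only the peaks of Cish itself. If no control library was used, as assumed here, the background comes from the same library and can include the reads of these peaks. Their part in it was not tested. Ranked by fold, Cish fell to the 7.39th and 27.5th percentile, so its place in the lists depended on whether the background is divided out.

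The joined width of Cish was 888 bp in the control list and 1027 bp in the asthma list, the 71.3rd and 93.6th percentile of marked coding genes. The ratio of 1.16 was above 97.0% of the 9064 coding genes marked in both lists. This order rested on joining, because the widest single peak was 888 bp in the control list and 329 bp in the asthma list, a ratio of 0.37, and with peaks of −log10 q of at least 5 the ratio was 0.26.

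Socs1 encodes a direct inhibitor of JAK kinases and a main brake on interferon gamma signaling. It is a short gene with 1 annotated start, at chr16:10782240-10785536 on the minus strand. The control list held 4 peaks there, at chr16:10782619-10782988 and chr16:10783911-10784100 in the 3′ UTR, at chr16:10784288-10784976 mostly over coding sequence, and at chr16:10785688-10786073 upstream of the start. The asthma list held 1 peak, at chr16:10784743-10785029, which shared 234 of its 287 bp with the third of these. Peaks covered 37.9% of the gene body in the control list and 8.70% in the asthma list. The summits of all 5 peaks were unique in the genome.

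The start of Socs1 was not under a peak in either list. In the control list 711 bp around it were free of peaks, between the upstream peak and the peak over the coding sequence. The 250 bases before the start (chr16:10785537-10785786, minus strand, GRCm38) are shown because the edge of the upstream control peak runs through them. Capitals mark the 99 bases under that peak, and none of these bases was under a peak in the asthma list.

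Socs1, 250 bases before the start: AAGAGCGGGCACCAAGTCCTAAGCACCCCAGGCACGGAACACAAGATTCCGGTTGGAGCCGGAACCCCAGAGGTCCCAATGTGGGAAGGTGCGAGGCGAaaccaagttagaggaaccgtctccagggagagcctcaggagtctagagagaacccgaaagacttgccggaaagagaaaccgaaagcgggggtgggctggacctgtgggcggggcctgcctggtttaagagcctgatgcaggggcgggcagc

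This stretch has no match to TTCNNNGAA. Within 500 bp of the start there was 1 match, at chr16:10785981-10785989, which lay under the upstream control peak and 952 bp from the asthma peak.

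The joined width of Socs1 was 3455 bp in the control list, the 99.9th percentile of marked coding genes and the widest of the members, and 287 bp in the asthma list, the 27.3rd percentile. The ratio of 0.083 ranked 2 from the lowest of 9064 genes. The control stretch was mostly gap, with 922, 187 and 711 bp free of peaks between its 4 peaks. Without joining, the widest single start peak was 689 bp in the control list (the 72.5th percentile) and 287 bp in the asthma list, a ratio of 0.42 at the 18.1st percentile of ratios, so much of the difference lay in the number of separate peaks. When weaker peaks (−log10 q under 5) were left out, the control stretch was 1066 bp and no asthma peak was left. The genes closest to Socs1 in their pair of width percentiles over the 2 libraries were Zbtb18, with 1865 bp and 290 bp (a distance of 1.12 percentile points), Gtf2a1, with 2303 bp and 279 bp (1.35), and Limd2, with 1725 bp and 285 bp (1.72).

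At the highest start summit Socs1 had 35 fragments in the control list (24.4 to 48.7) and 15 in the asthma list (8.40 to 24.7). The ratio was 0.43 (0.217 to 0.805), where the median of coding genes marked in both lists was 0.61. The interval covers counting error in these 2 libraries and includes that median. The −log10 q was 9.83 in the control list, the 66.4th percentile of peaks, and 2.89 in the asthma list, the 0.85th percentile. As at Cish, the local background was high, at 4.20 and 2.61 times the smallest of each list, above 99.0% and 98.6% of coding start peaks. It can likewise include the reads of the peaks of Socs1 itself.

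Socs2 encodes a brake on growth hormone signaling that STAT5 also induces. It lies on chr10:95385362-95417180 (minus strand) and has 12 annotated starts, of which 8 were within 1000 bp of a peak in both lists. The control list held peaks of 580 bp at chr10:95415684-95416263 and of 353 bp at chr10:95416426-95416778. The asthma list held peaks of 156 bp at chr10:95415823-95415978 and of 178 bp at chr10:95416438-95416615, both wholly inside the control peaks. The control peaks covered 3 of the 12 starts and the asthma peaks covered none. The start of 5730420D15Rik, a noncoding RNA that runs from the same promoter in the other direction, lay within 1000 bp of the second peak of each list.

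The joined widths of Socs2, 1095 bp and 793 bp, lay at the 85.0th and 85.1st percentile of their lists, and the ratio of 0.72 was close to the median of 0.66 over coding genes. In the asthma list the joined stretch was mostly gap, since 459 bp separated the 2 short peaks, and without joining the ratio was 0.31. The summit had 33 fragments in the control list (22.7 to 46.3) and 14 in the asthma list (7.65 to 23.5), a ratio of 0.42 (0.210 to 0.815). The −log10 q was 12.9 and 3.86, the 80.1st and 6.38th percentile. Socs2 and Socs1 were thus the members with the lowest ratio of summit fragments, at the 4.92nd and 5.36th percentile of coding genes.

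Socs3 encodes the main brake on IL-6 family receptors, which signal through STAT3. It lies on chr11:117966079-117970047 (minus strand) and has 3 annotated starts. The control list held a peak of 420 bp at chr11:117968694-117969113 with a −log10 q of 8.54 and a peak of 212 bp at chr11:117969389-117969600 with a −log10 q of 3.83. The asthma list held no peak at the gene, and its nearest peak was 16876 bp away, at the start of Pgs1 (chr11:117986923-117987271). The control stretch was 907 bp wide when joined, the 72.9th percentile, and had 22 fragments at its summit (13.8 to 33.3), the 30.0th percentile of marked genes. The control list had 790 coding start peaks whose −log10 q was within 0.5 of that of Socs3, and of these 46.6% (43.1 to 50.1, exact Clopper-Pearson) overlapped no asthma peak, and 19% of all coding genes marked in the control list had no start peak in the asthma list. The absence of a listed peak is therefore shared with many control peaks of this strength and gives no level of H3K4me3 at Socs3.

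The 250 bases before the RefSeq start of Socs3 (chr11:117969367-117969616, minus strand, GRCm38) are shown because 212 of them were under the second control peak and because they hold a STAT motif, in capitals.

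Socs3, 250 bases before the start: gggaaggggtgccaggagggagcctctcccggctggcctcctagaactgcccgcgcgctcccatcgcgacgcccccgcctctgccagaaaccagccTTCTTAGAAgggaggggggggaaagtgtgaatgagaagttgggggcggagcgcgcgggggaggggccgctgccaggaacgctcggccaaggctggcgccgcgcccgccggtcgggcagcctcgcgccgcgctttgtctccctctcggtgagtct

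The motif, at chr11:117969512-117969520, lay under that control peak. Within 500 bp of the start there was 1 further match, at chr11:117969239-117969247, which lay 126 bp outside the control peaks. In windows from 250 bases before to 50 after the start, TTCNNNGAA was present in 8.29% of the 32817 promoters and in those of Cish and Socs3 among the 4 members in the promoter table, which are Cish, Socs1, Socs3 and Socs4. The STAT6 form of this palindrome, with 4 bases in place of 3 between its arms (6.94% of promoters), the palindrome of the glucocorticoid receptor (0.475%) and the TATA box TATAAA (13.6%) were present in 0 of these 4.

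**Figure D2:**
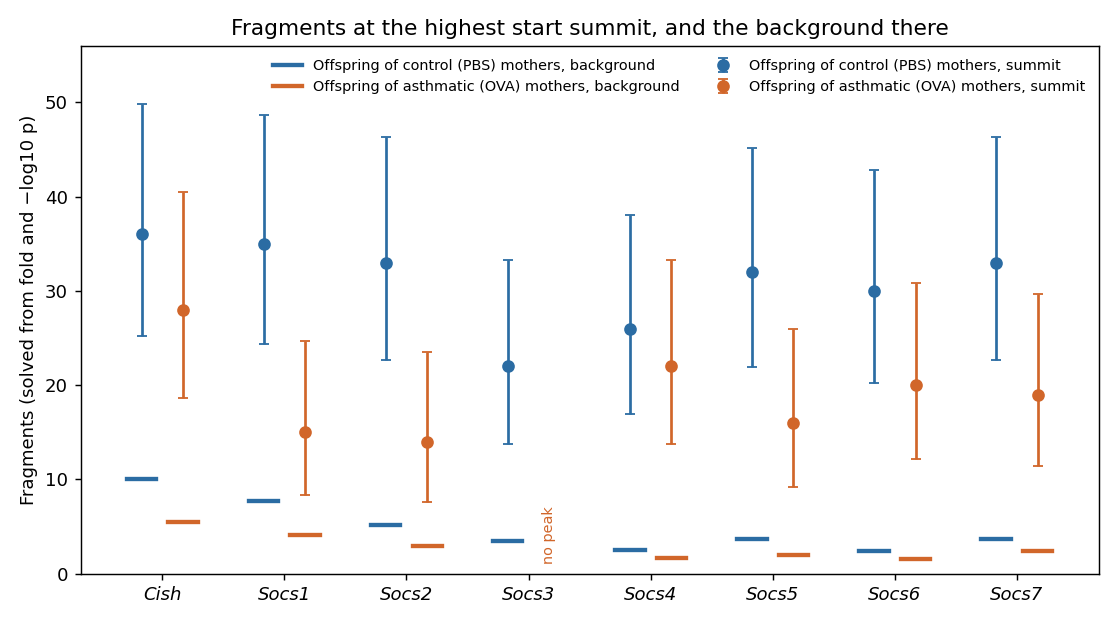
Number of fragments at the highest start summit of each gene (points, with exact 95% Poisson intervals) and the background there (short bars), for offspring of control mothers (blue) and of asthmatic mothers (orange), both solved from the fold and −log10 p of the peak. Cish and Socs1 had the highest backgrounds, and all 7 genes with a peak in both lists had fewer fragments in the asthma list. The intervals of the 2 lists overlapped at each of them. The exact interval of the ratio excluded equal counts at Socs1, Socs2 and Socs5 and included them at Socs4, Socs6, Socs7 and Cish. Each of these ratio intervals included 0.61, the median ratio of coding genes.

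The other 4 members are less often tied to cytokine feedback. Socs4 is known for acting on the EGF receptor. It lies on chr14:47276931-47296102 (plus strand), and its start region is shared with Wdhd1, a DNA replication gene, and with the antisense RNA Gm49150, so its peaks cannot be assigned to Socs4 alone. The control list held peaks at chr14:47276398-47276833 and chr14:47276956-47277416, and the asthma list held peaks at chr14:47276441-47276804 and chr14:47276963-47277429. The places were nearly the same, with 91.2% of control peak bases and 98.4% of asthma peak bases shared. The joined widths were 1019 bp and 989 bp, a ratio of 0.97, which became 1.01 without joining and 1.18 when widths were divided by the smallest peak width of their list. The −log10 q of 14.6 and 14.1 lay at the 84.9th and 92.0th percentile, and the summit had 26 fragments (17.0 to 38.1) and 22 fragments (13.8 to 33.3). The ratio of fragments, 0.85 (0.457 to 1.55), and the share of control bases also marked in the asthma list were the highest of the members.

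Socs5, a regulator of EGF receptor and IL-4 receptor signaling, lies on chr17:87107679-87137839 (plus strand). The control list held peaks at chr17:87106960-87107391 and chr17:87107464-87108166, and the asthma list held a single peak at chr17:87107576-87108049, inside the second of them. All 3 annotated starts were under a peak in both lists, and the upstream peak had no counterpart in the asthma list. The joined width was 1207 bp and 474 bp, a ratio of 0.39 at the 18.9th percentile of coding genes, and without joining 0.67. The summit had 32 fragments (21.9 to 45.2) and 16 fragments (9.15 to 26.0), a ratio of 0.5 (0.256 to 0.938), with a −log10 q of 16.0 and 7.20.

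Socs6, known for binding insulin signaling proteins and KIT, spans chr18:88665224-88927481 (minus strand). It had a start peak of 734 bp at chr18:88893720-88894453 in the control list and of 406 bp at chr18:88893777-88894182 in the asthma list, wholly inside the control peak. The control peak covered 6 of 9 annotated starts and the asthma peak covered none, although its edge was 34 bp from the nearest. Its strength ranked high in both lists, with a −log10 q of 19.1 (93.8th percentile) and 12.6 (88.1st percentile), while the summit had 30 fragments (20.2 to 42.8) and 20 fragments (12.2 to 30.9). The local background was low, at 1.31 and 1.00 times the smallest of each list, which is the reverse of Cish.

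Socs7, which has been linked to insulin signaling, lies on chr11:97362551-97398542 (plus strand). It had a single start peak in both lists, of 1100 bp at chr11:97362228-97363327 and of 1169 bp at chr11:97362334-97363502. Both covered 1 of the 2 annotated starts, with 686 bp and 782 bp of coding sequence under them. The width ratio was 1.06, above 95.1% of coding genes, although the summit had 33 fragments (22.7 to 46.3) in the control list and 19 (11.4 to 29.7) in the asthma list. The −log10 q was 16.9 and 8.68.

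The peaks away from a start were the 2 peaks in the 3′ UTR of Socs1 in the control list and an intronic peak of Socs6 and of Socs7 in the asthma list. The Socs6 peak (chr18:88875733-88875931) had a −log10 q of 11.5 and the Socs7 peak (chr11:97373801-97374011) one of 9.59. Both consisted entirely of repeat-masked bases, and the 75 bases around their summits had 139 and 1537 exact copies elsewhere on the 21 assembled chromosomes. The reads behind these peaks cannot be assigned to Socs6 or Socs7, and each other member peak had a summit without a copy.

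Across the 7 members marked in both lists, 5 were narrower in the asthma list and 2, Socs7 and Cish, were wider (the order of Socs4 and of Cish reversed without joining), where 92.2% of coding genes were narrower and 7.67% were wider. The median ratio was 0.72 for the members and 0.66 for coding genes. This order turned without joining (0.553 and 0.645) and with peaks of −log10 q of at least 5 (0.553 and 0.657). All 7 had fewer summit fragments in the asthma list, as did 97.3% of coding genes, with a median ratio of 0.58 for the members and 0.61 for coding genes. Narrower stretches and fewer solved fragments were thus general in the asthma list. The fragments are not scaled for the depth of the libraries, and the smallest peak, which was taken to follow the fragment length, was 156 bp against 190 bp. The part of this in the members' widths and fragments was not tested.

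**Figure D3:**
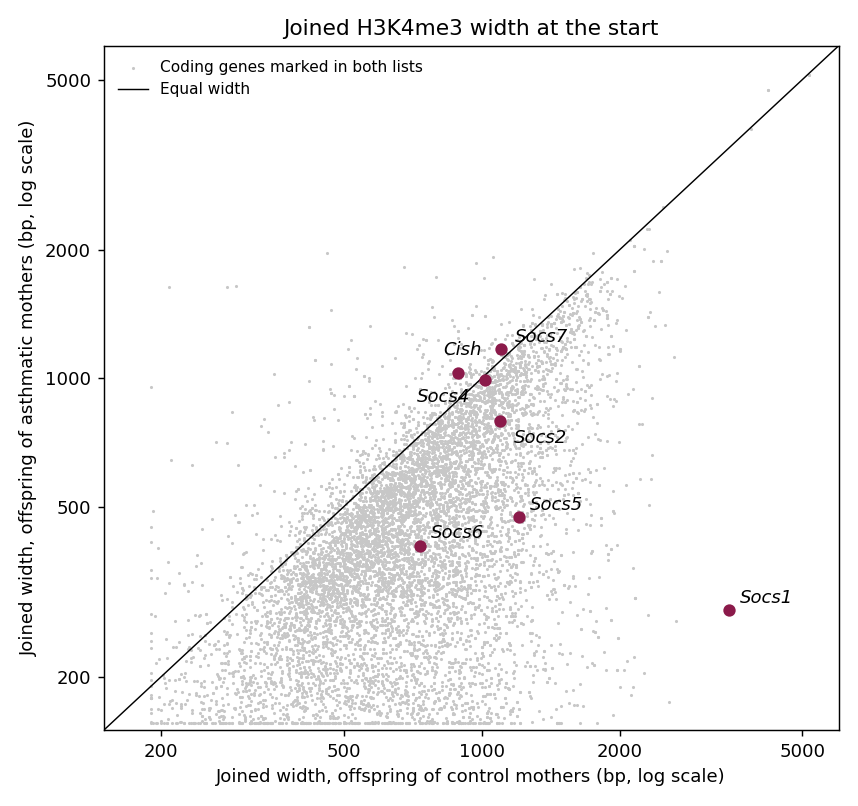
Joined width at the start in offspring of control mothers against offspring of asthmatic mothers (bp, both axes on a log scale), for the 9064 coding genes marked in both lists (gray) and the 7 members (red), with the line of equal width. Most genes lie below the line, Socs1 lies far to the right at 3455 bp and 287 bp, and Socs7 and Cish lie above the line.

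The members' places in the lists moved in different directions. Among the 9064 coding genes marked in both lists, the joined width ranked higher in the asthma list than in the control list for Cish (93.5 and 67.2), Socs4 (92.3 and 77.4) and Socs7 (96.2 and 83.0). It ranked lower for Socs1 (26.4 and 99.9) and Socs5 (58.2 and 88.1), and was close for Socs2 (84.9 and 82.7) and Socs6 (48.8 and 51.8). Among all genes marked in each list the joined width of Cish ranked at 93.6 and 71.3, and by the widest single peak it ranked at 43.8 in the asthma list and 89.6 in the control list. By the widest single peak in the same sets, Socs2 ranked at 8.62 and 56.4, Socs6 at 62.6 and 77.6, and Socs5 at 74.6 and 74.0, so the order for these genes depended on joining. The median rank of the members by −log10 q was the 82.5th percentile of all peaks in the control list (8 members) and the 64.4th in the asthma list (7 members). The lists differ in length, and against the start peaks of coding genes alone the medians were close, at 60.6 and 62.0. Ranked by fold they were 67.7 and 60.3, and ranked by solved fragments they were 90.6 and 55.6, so the gap between the lists depended on the measure. At least 1 annotated start was under a peak at 6 members in the control list and at 4 in the asthma list, where the shares of marked coding genes were 73.3% and 49.1%.

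**Figure D4:**
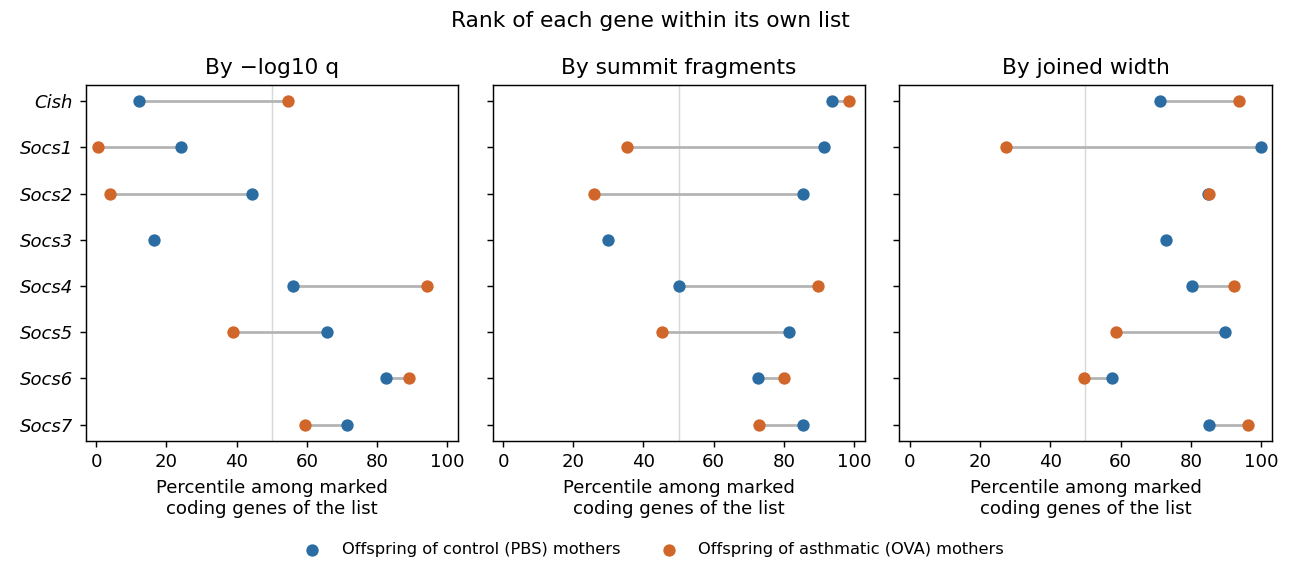
Percentile of each gene among the coding genes marked in its own list, by −log10 q of the strongest start peak, by fragments at the highest start summit and by joined width, for offspring of control mothers (blue) and of asthmatic mothers (orange). Cish stood high by fragments in both lists but low by −log10 q in the control list (12.1), and Socs1 fell from the 99.9th to the 27.3rd percentile by width.

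The genes around the SOCS proteins were then counted in 5 lists of cytokine signaling genes, 94 genes in all. A start peak was present at 71 of them in the control list and at 64 in the asthma list, where 51% and 42% of coding genes had one, and at 62 in both, where 41.3% did. The median width ratio of these 62 was 0.68 and 59 were narrower in the asthma list, near the 0.66 and 92.2% of coding genes.

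Among 11 JAK kinases and STAT factors, through which the receptors signal, 11 were marked in the control list and 10 in the asthma list. The gene marked in the control list alone was Jak3, the kinase of the common gamma chain. The widest were Stat6 in the control list (1133 bp), the STAT of IL-4 and IL-13, and Stat5b in the asthma list (751 bp). All 6 partners of the SOCS box in the ubiquitin ligase were marked in both lists, with Cul2 (841 bp) widest in the control list and Cul5 (764 bp), the cullin that SOCS proteins use, in the asthma list. Of 16 other brakes on cytokine signaling, 16 and 14 were marked, and Ptpn6, a phosphatase, and Sh2b3, an adaptor that restrains JAK2, were marked in the control list alone. The widest were Tnfaip3 (1330 bp), an inhibitor of NF-kappa B, in the control list and Pias3 (825 bp), an inhibitor of STAT3, in the asthma list.

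Of 30 receptors that signal through JAKs, 18 were marked in the control list and 15 in the asthma list, near the 51% and 42% of all coding genes. Of the 18, 5 were marked in the control list alone, where 19% of the coding genes marked there were, and the strongest of these were Il7r, Il2rg, Il6ra and Il2rb, which include the IL-7 receptor and the common gamma chain. Csf2rb and Osmr (2 of 30, against 0.711% of coding genes) were marked in the asthma list alone, with narrow stretches of 156 bp and 215 bp. Without peaks that were at least 50% repeat-masked, 12 receptors were marked in the asthma list and 18 in the control list. With peaks of −log10 q of at least 5 the counts were 11 and 18. Shares of all coding genes were not counted at these settings, and the repeats under the Csf2rb and Osmr peaks were not examined. Il13ra1, Il5ra, Il21r and Il12rb1 were among the 10 without a start peak in either list. Il2rb (1024 bp), a chain of the IL-2 receptor, was the widest in the control list and Il6st (880 bp), the shared chain of the IL-6 family, in the asthma list. Of 31 other genes whose proteins carry a SOCS box, 20 and 19 were marked, and Spsb2 was marked in the control list alone. The widest were Neurl2 (1275 bp) in the control list and Pcmtd1 (855 bp) in the asthma list, and Asb4, Asb9, Asb10 and Asb11 were among the 11 without a start peak.

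**Figure D5:**
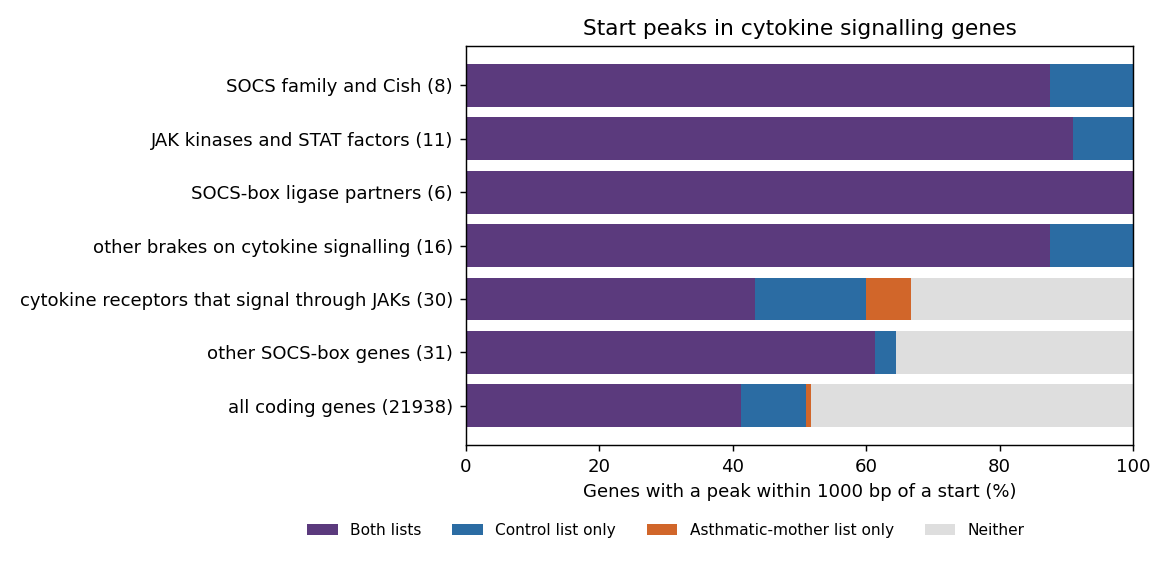
Share of genes (%) with a start peak in both lists, in the control list only, in the asthma list only or in neither, for the SOCS family with Cish, the 5 cytokine signaling lists and all 21938 coding genes, with the number of genes in parentheses. The SOCS family, the JAK and STAT genes, the ligase partners and the other brakes were marked in at least 1 list at every gene, whereas 10 of 30 receptors and 48.2% of all coding genes were marked in neither.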

How the data were processed

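H3K4me3 ChIP-seq by CATCH-seq was analyzed for 1 library of lung ILC2s per group. Per the study's methods, Trim Galore and Cutadapt served for trimming, Bowtie 2 for alignment to GRCm38 and Sambamba for removing duplicates. The peak caller, its threshold and the use of the input library are not given in the sources used here, and the reporting summary says that ChIP-seq peaks were not called, yet each library has a deposited list. The deposited score equals −log10 q multiplied by 10 without its decimals, in at least 99.98% of peaks. The deposited fold is a ratio of the summit signal to the caller's background, and the deposited −log10 p (p-value) and −log10 q (q-value) are the caller's measures of each peak. At its lowest, −log10 q came to 2.02 in the control list and 2.01 in the asthma list, so absence from a list does not mean absence of the mark. None of these values is scaled between libraries, so fold, p and q were ranked within a list, and the fragments solved from them were set side by side without scaling for depth.

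Transcript starts and exons came from GENCODE vM21, and positions are counted from 1. Fragments and background were solved from fold and −log10 p under a Poisson model with 1 added to both in the fold, which was solved for 99.99% of summits (tolerance 0.001) and assumes no control. Promoters were RefSeq sequences (GRCm38.p6), present for 4 of 8 members and equal to the genome at those 4. Python 3.11.15 with pandas 2.3.3, numpy 2.4.6 and scipy 1.17.1 was used. Joining, start assignment and solving were tested on simulated peaks, with 400 of 400 recovered in each. Shares of genes have exact Clopper-Pearson 95% intervals, and all intervals cover counting error only. With 1 library per group no test was possible.

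The members and the gene and marker lists were chosen with earlier results of these data known. Named were all members with their peaks, genes with a start within 1000 bp of a member peak, the widest gene of each signaling list in each library, up to 4 genes marked in 1 list only (strongest first) or in neither (list order), and the 3 genes most like the widest member.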

Additional observations from a re-analysis of the deposited data

How the results depend on the processing

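No paired analysis was possible because each group has 1 library, so leaving out a replicate was not possible either. Of 78 alternatives for summary values 67 left the value within 1.5 times or within the spread set for it and 11 moved it. With the 10000 peaks of highest −log10 p of each list, 5 members in the control list and 2 in the asthma list had a start peak. The counts were the same 5 and 2 when the gene body was included. Of the signaling genes, 50 were marked in the control list in place of 71, and 14 in the asthma list in place of 64. The share of all coding genes under this cut was not counted, so these falls are no result about the members or the signaling genes. Without joining, the median joined width of the members was 696 bp in the control list and 406 bp in the asthma list, in place of 1057 and 793, and the median width rank in the asthma list was 62.6 in place of 85.1. Without peaks of −log10 q under 5, the median width in the asthma list was 474 bp, and 5 members were marked there and 8 in the control list. The share of all coding genes at this threshold was not counted. The median rank of the strongest start peak in the control list was 67.7 by fold and 60.6 among coding start peaks. Of 288 alternatives for single genes and lists 60 moved and 4 reversed. The ratio of joined widths of Socs4 became 1.01 without joining and 1.18 when divided by the smallest peak width, and that of Cish became 0.37 without joining and 0.26 without the peaks of −log10 q under 5. The ranking by solved fragments was added after the data were seen. The median summit held 21 fragments in the control list and 18 in the asthma list, which limits the precision of single peaks, and the effect of depth on the lists was not tested.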
